A study of Homo sapiens with 15 samples.

Results

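The 59 genes described here were those whose messenger RNA stood higher in Reh leukaemia cells with wild-type ETV6 than with the R399C form of ETV6 or with a control protein. They were taken from 33367 named genes, of which 19165 were protein-coding and 10986 of those averaged at least 2 CPM (read counts scaled to the library's total over named genes) with wild-type ETV6. A gene had to reach that level and a log2 ratio, with 0.5 CPM added, of at least 0.7 over the control and at least 0.58 over R399C. Of the 10986 genes, 259 passed the first ratio, 112 the second and 63 both, and 4 of those 63 were among 10 genes that the rule left out by name. The genes were thus chosen by their mean levels in the ETV6 experiment, so their values from the ETV6 experiment are given below as a description, with no test.

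The study sequenced RNA in 15 libraries of Reh, an established human line of B-lymphoblastic leukaemia with an ETV6::RUNX1 fusion gene and no intact ETV6 of its own. In 9 libraries, transduced cell populations expressed V5-tagged wild-type ETV6 (ETV6_WT), V5-tagged ETV6 R399C (ETV6_R399C) or the fluorescent protein tagBFP from a doxycycline-inducible (DoxON) vector, with 500 ng/ml doxycycline for 48 h and 3 libraries a group. In the other 6, Reh cells with inducible dCas9-KRAB, a transcriptional repressor tethered to inactive Cas9, carried a guide against the promoter of ERG (sgERG) or a control guide (sgCtrl), were sorted for the guide vector's reporter and received 500 ng/ml doxycycline for 72 h. The endogenous fusion was present in all 5 groups, and both ETV6 forms were made from a transgene. The labels do not say whether replicates were separate cultures, so p-values measure only the spread between these libraries.

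ETV6 belongs to the ETS family of transcription factors, which bind DNA around a GGAA core, and it is known as a repressor in blood cells. The residue changed in R399C lies in its DNA-binding ETS domain, and inherited changes there, this one among them, are known from families with low platelets and leukaemia. ERG, another ETS factor, binds the same core and is known mainly as an activator.

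ETV6 reads checked the labels for an ETV6 transgene: they averaged 5.85 ± 0.379 CPM with tagBFP, 378 ± 13.4 with ETV6_R399C and 480 ± 18.8 with ETV6_WT (SD, n = 3 each). The transcript was thus less abundant with R399C than with wild type, and the part of that gap in the differences below was not tested. Summed per gene, the reads cannot tell wild type from R399C, so those 2 labels were not checked against each other. ERG averaged 521 ± 6.46 CPM with sgCtrl and 105.7 ± 4.47 with sgERG. Libraries held 22040338 to 52481351 reads. Of 11 markers of B-lymphoblasts, 10 had reads in every group and VPREB1 was at 0. Their summed level was 6268 to 6368 CPM with tagBFP, 7790 to 7951 with ETV6_R399C, 8154 to 8302 with ETV6_WT, 9273 to 9390 with sgCtrl and 8385 to 8676 with sgERG. Summed T-cell markers reached at most 2.93 CPM and erythroid markers at most 0.490 CPM in any library. Of 9 myeloid markers, summing to 57.3 to 60.9 CPM with tagBFP, 94.1 to 97.5 with ETV6_R399C and 77.5 to 80.6 with ETV6_WT, most reads were of MPO, while ELANE and CEBPA were at 0. The markers did not move together. From tagBFP to ETV6_WT, MPO went from 38.4 to 55.5 CPM and CSF1R from 9.54 to 16.7, but ITGAM from 7.24 to 3.82 and CD33 from 2.16 to 1.06. Plasma-cell markers, mostly SDC1, summed to 9.54 to 12.1 CPM with tagBFP, 6.30 to 7.41 with ETV6_R399C and 9.05 to 11.4 with ETV6_WT. Stromal markers summed to 38.9 to 39.4, 43.8 to 44.5 and 39.1 to 43.4 CPM in the same order, and megakaryocyte markers to 14.1 to 19.9, 19.1 to 24.1 and 18.5 to 26.4. The part of these shifts in the results was not tested. In bulk RNA, a gene expressed in fewer cells and a gene with less RNA per cell cannot be told apart.

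The 59 genes were mostly of low abundance. Their mean with ETV6_WT had a median of 7.78 CPM and ran from 2.17 to 359 CPM, with 33 genes under 10 CPM, while the 13067 protein-coding genes tested had a median of 30.0 CPM. Per length, their median was 1.78 TPM (abundance per transcript length) with tagBFP, 3.08 with ETV6_R399C and 5.68 with ETV6_WT. By TPM, NPY at 138, LGALS1 at 127 and GPSM1 at 117 led the 59 with ETV6_WT. With TPM in place of CPM, the rule kept 32 of the 59.

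The median log2 ratio of ETV6_WT over tagBFP was 1.47, with a range of 0.75 to 3.61, and that over ETV6_R399C was 0.82, with a range of 0.58 to 3.31. In 51 of the 59 genes, all 3 ETV6_WT libraries lay above all 6 tagBFP and ETV6_R399C libraries. The share over all 14242 genes tested was 6.49%, and nothing is read from the gap because these libraries chose the genes. The R399C mean lay between those of the control and the wild type in 50 genes. Its median log2 ratio over tagBFP was 0.37, against 0.02 over all genes tested. Its libraries all lay above tagBFP in 37 genes (62.7%, with 26.4% over all genes tested) and all below in 1 gene (1.69%, with 24.2% over all genes tested), and overlapped in 21. Nothing is read from these gaps either, because the tagBFP and ETV6_R399C libraries also had a part in choosing the genes.

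As a share of the CPM difference between tagBFP and ETV6_WT, ETV6_R399C reached a median of 21.1%. Its mean was at or below that of tagBFP in 9 genes, at up to 25% of the difference in 23, at 25% to 50% in 22 and at 50% or more in 5. The 5 with the largest shares were FNDC5 (57.4%), AHNAK (56.3%), SEMA6A (54.9%), DLK1 (50.4%) and ITIH3 (50.2%). At the other end, SOCS2, TBX21, CPZ, CTGF, OLIG1, EHD4, ADGRE2, MAPK8IP2 and KIF24 showed no higher mean with R399C than with tagBFP.

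**Figure D1:**
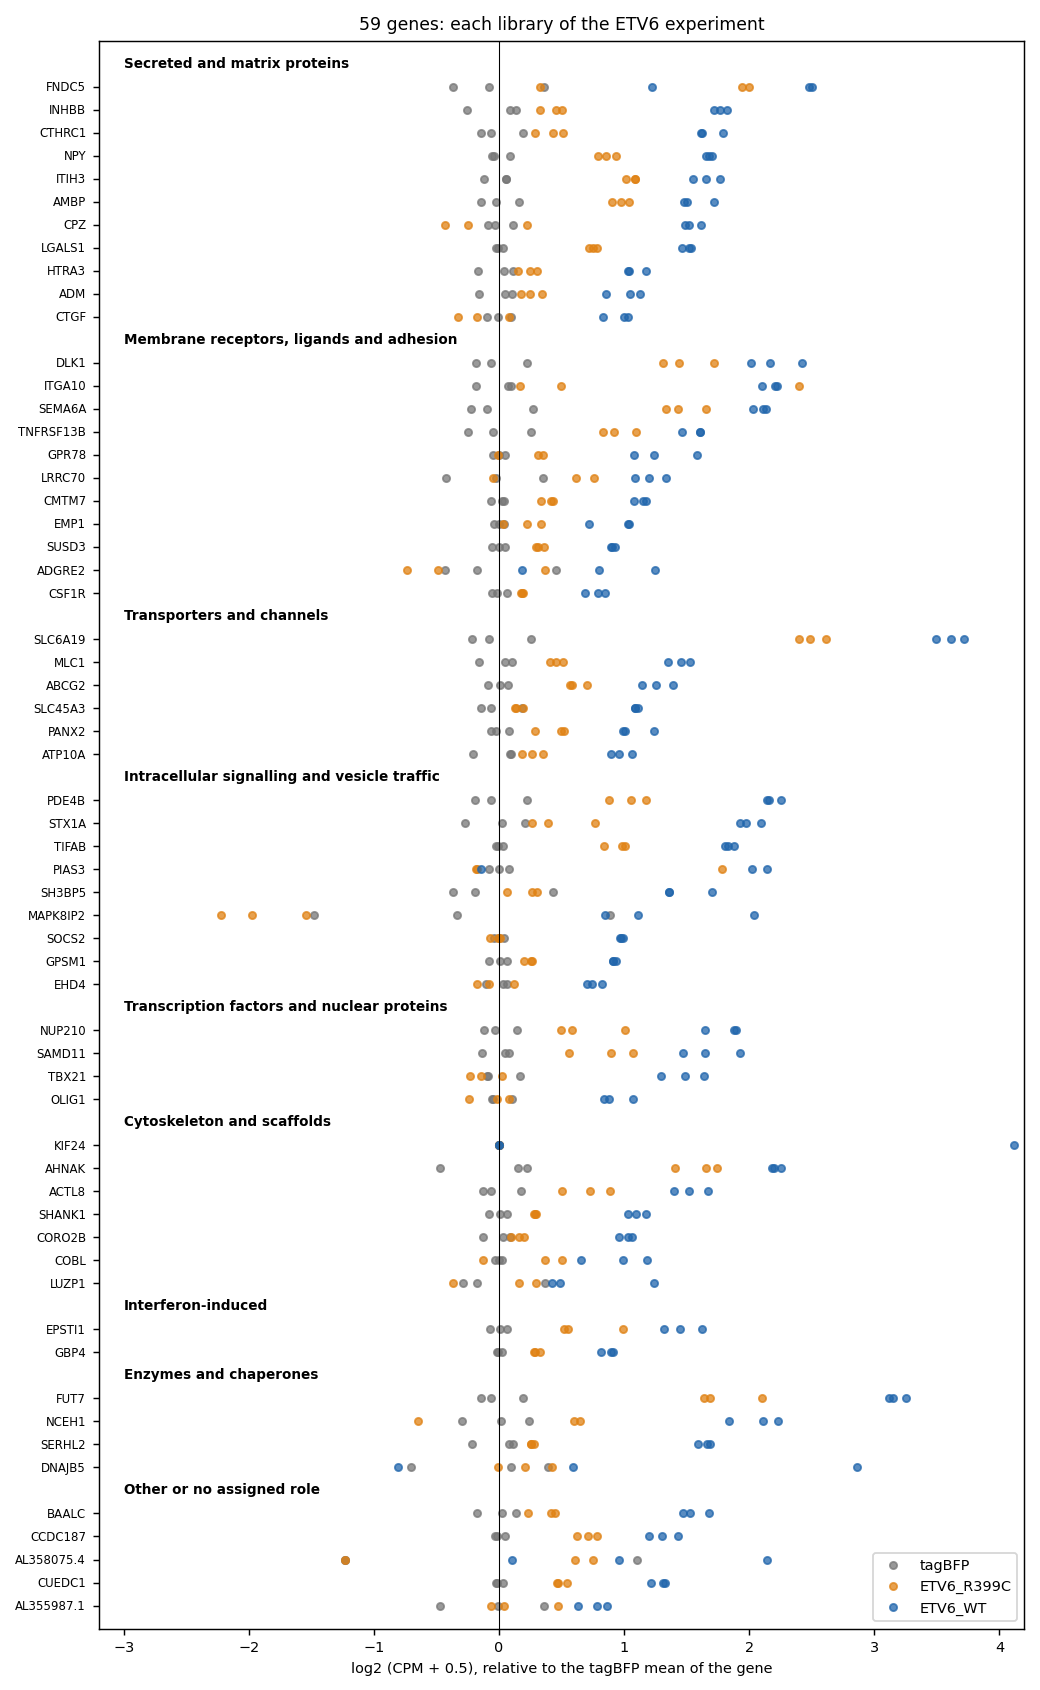
Each point is 1 library of the ETV6 experiment, as log2 (CPM + 0.5) relative to the gene's tagBFP mean (x axis), for the 59 genes ordered by role (y axis), with 3 libraries each of tagBFP (grey), ETV6_R399C (orange) and ETV6_WT (blue). In 51 genes the 3 blue points lie right of all others, and the orange points mostly lie between grey and blue.

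The genes at the edges of the rule were close to those just outside it. EPSTI1 at 2.17 CPM and ADM at 2.23 CPM were just above the level required, and SEMA6B at 1.85 CPM and SERINC2 at 1.81 CPM just below. Over tagBFP, EHD4 at log2 0.75 and AL355987.1 at 0.76 were inside, and EPAS1 at 0.68 and PHETA1 at 0.66 outside. Over R399C, GBP4 and FNDC5 were inside, both at 0.58, and NLRC5 and AGR2 outside, both at 0.56.

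Upstream sequence is shown for 6 of the genes whose 250 bases before an annotated start hold no annotated exon: TBX21, INHBB, ATP10A and SLC45A3, which also fell on ERG repression, SLC6A19, which had the largest ratio over tagBFP, and HTRA3, which lies in a cluster described below. Sequences are from RefSeq on GRCh38.p14, 5′ to 3′ on the gene's strand, with the ETS core GGAA, or TTCC on the other strand, in capitals.
TBX21, chr17:47732986-47733235, forward strand: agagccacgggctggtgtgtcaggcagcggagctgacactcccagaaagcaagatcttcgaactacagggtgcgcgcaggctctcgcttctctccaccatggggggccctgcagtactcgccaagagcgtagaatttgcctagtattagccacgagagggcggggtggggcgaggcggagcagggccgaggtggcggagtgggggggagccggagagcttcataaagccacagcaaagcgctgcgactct
SLC6A19, chr5:1201345-1201594, forward strand: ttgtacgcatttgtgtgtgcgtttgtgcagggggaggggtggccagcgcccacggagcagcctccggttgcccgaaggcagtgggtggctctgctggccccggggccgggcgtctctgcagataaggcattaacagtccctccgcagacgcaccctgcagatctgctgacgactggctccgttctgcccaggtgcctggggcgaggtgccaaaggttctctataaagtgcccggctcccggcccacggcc
INHBB, chr2:120345886-120346135, forward strand: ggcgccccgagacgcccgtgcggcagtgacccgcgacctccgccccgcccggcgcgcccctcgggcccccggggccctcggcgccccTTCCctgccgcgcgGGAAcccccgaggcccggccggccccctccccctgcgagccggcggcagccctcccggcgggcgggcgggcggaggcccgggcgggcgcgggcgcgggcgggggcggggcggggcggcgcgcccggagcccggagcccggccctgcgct
SLC45A3, chr1:205680510-205680759, reverse strand: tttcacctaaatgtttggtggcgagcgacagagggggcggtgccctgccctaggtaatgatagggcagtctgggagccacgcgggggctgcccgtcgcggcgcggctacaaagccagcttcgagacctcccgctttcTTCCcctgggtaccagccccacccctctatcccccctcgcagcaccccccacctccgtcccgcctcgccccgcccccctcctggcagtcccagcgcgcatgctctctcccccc
ATP10A, chr15:25863328-25863577, reverse strand: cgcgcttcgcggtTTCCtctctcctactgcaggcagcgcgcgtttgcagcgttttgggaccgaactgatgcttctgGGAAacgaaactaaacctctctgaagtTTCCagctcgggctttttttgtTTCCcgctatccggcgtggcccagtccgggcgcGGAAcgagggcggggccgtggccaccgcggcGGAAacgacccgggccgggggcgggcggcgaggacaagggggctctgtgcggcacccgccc
HTRA3, chr4:8269504-8269753, forward strand: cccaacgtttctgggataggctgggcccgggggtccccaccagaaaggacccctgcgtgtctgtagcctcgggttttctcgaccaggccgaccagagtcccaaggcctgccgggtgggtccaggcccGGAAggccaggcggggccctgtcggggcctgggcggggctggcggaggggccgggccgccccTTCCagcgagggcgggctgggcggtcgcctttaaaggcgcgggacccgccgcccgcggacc
The cores number 6 in ATP10A, 2 each in INHBB and HTRA3, 1 in SLC45A3 and 0 in TBX21 and SLC6A19. The ATP10A window precedes an internal annotated start and lies within the gene, which begins at 25865172 on the reverse strand. These windows thus differ in cores, and no link between the cores and the levels of the genes was tested.

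Promoters of 300 bases, 250 before and 50 after a start, were found for 44 of the 59 genes (63 promoters, CTGF under its newer symbol CCN2). Motifs were counted on both strands and shares are of genes with at least 1 match. GGAA was in 95.5% of the 44 and in 96.4% of all 14526 protein-coding genes in the table. The longer ETS site CCGGAAGT, which contains GGAA, was in 0 of the 44 and in 7.23% of all genes. The repeat GGAAGGAA was in 3 of the 44 (6.82%; ITGA10, GPR78 and ABCG2) and in 4.98% of all genes. CGGAAG, contained in CCGGAAGT and chosen after these counts were seen, was in 4 of the 44 (9.09%) and in 30.4% of all genes. Among 1289 other genes that averaged 2 to 10 CPM with ETV6_WT, it was in 28.0%. The median GC content was 63.7% in these promoters and 62.7% in all. These counts describe letters in a window and were not tested.

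Secreted and matrix proteins made up 11 of the 59 genes, and R399C reached a median of 19.0% of the wild-type difference among them. INHBB (chromosome 2, 120346143 to 120351808, forward strand, hg38) encodes the beta-B subunit of activins and inhibins. It stood at 11, 11.4 and 8.58 CPM with tagBFP, 14.3, 13 and 14.8 with ETV6_R399C and 37.8, 35 and 36.3 with ETV6_WT. The ETV6_WT libraries were well apart from the other 6, and R399C covered 14.3% of the difference. CPZ (chromosome 4, 8592660 to 8619759, forward strand), a carboxypeptidase of the extracellular matrix, stood at 5.49, 6.09 and 5.26 CPM with tagBFP, 6.63, 4.02 and 4.65 with ETV6_R399C and 16.6, 17 and 18.2 with ETV6_WT. ETV6_R399C and tagBFP overlapped, and ETV6_WT lay above both, at log2 1.67 over R399C. CTHRC1, a secreted protein with a collagen-like repeat, stood at 2.5, 2.01 and 1.87 CPM with tagBFP, 2.72, 3.04 and 3.25 with ETV6_R399C and 7.56, 8.6 and 7.6 with ETV6_WT. CTGF, a matricellular growth factor, stood at 9.57, 8.98 and 10.3 CPM with tagBFP, 7.56, 8.43 and 10.2 with ETV6_R399C and 17.5, 19.8 and 20.1 with ETV6_WT. Both had ETV6_WT above every other library, with overlap between R399C and tagBFP only in CTGF.

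NPY, the precursor of neuropeptide Y, separated all 3 groups, at 10.1, 9.99 and 11.1 CPM with tagBFP, 18.3, 20.2 and 19.2 with ETV6_R399C and 34.9, 34.3 and 33.7 with ETV6_WT. LGALS1, the lectin galectin-1, did so too, at 9.45, 9.59 and 9.87 CPM with tagBFP, 16.2, 16.6 and 17 with ETV6_R399C and 27.5, 28.8 and 28.6 with ETV6_WT. AMBP, the precursor of alpha-1-microglobulin and bikunin, stood at 2.85, 3.3 and 2.58 CPM with tagBFP, 6.5, 6.23 and 5.89 with ETV6_R399C and 10.7, 9.17 and 9.01 with ETV6_WT, again with R399C between the others. In these 3 genes R399C covered 37%, 37.3% and 49% of the difference. HTRA3, a secreted serine protease, averaged 6.91 ± 0.735 CPM with tagBFP, 8.21 ± 0.441 with ETV6_R399C and 15.2 ± 0.917 with ETV6_WT. ADM, the precursor of the peptide hormone adrenomedullin, averaged 0.852 ± 0.128, 1.12 ± 0.0925 and 2.23 ± 0.261 CPM in the same order. ITIH3, a heavy chain of the inter-alpha-trypsin inhibitors, averaged 0.498 ± 0.0707, 1.58 ± 0.0577 and 2.66 ± 0.237 CPM. By TPM, ITIH3 averaged 0.624 ± 0.344, 2.57 ± 0.631 and 3.05 ± 0.185 in the same order.

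Receptors, ligands and adhesion proteins of the membrane also numbered 11. CMTM7 (chromosome 3, 32391671 to 32483067, forward strand), a MARVEL-domain membrane protein, had the highest CPM of them, at 50.2, 47.3 and 50.9 CPM with tagBFP, 66.8, 62.4 and 66.1 with ETV6_R399C and 112, 105.1 and 110.4 with ETV6_WT. The 3 groups did not overlap. The gene overlaps CMTM6 on the other strand, and since the strand setting of the counting is not given, the counts of such pairs are uncertain. SEMA6A, a transmembrane semaphorin, stood at 4.41, 5.82 and 3.998 CPM with tagBFP, 12.7, 13.6 and 16 with ETV6_R399C and 20.9, 22.5 and 22.1 with ETV6_WT, with R399C nearer the wild type than the control. DLK1, a Notch-ligand-like protein of progenitor cells, stood at 0.317, 0.251 and 0.4997 CPM with tagBFP, 2.32, 1.62 and 1.82 with ETV6_R399C and 3.34, 4.09 and 2.96 with ETV6_WT. TNFRSF13B, the receptor TACI of B cells for the ligands BAFF and APRIL, stood at 0.761, 0.389 and 0.523 CPM with tagBFP, 1.5, 1.77 and 1.39 with ETV6_R399C and 2.41, 2.71 and 2.72 with ETV6_WT. In both genes R399C again lay between the other groups. CSF1R, the receptor of macrophage colony-stimulating factor and 1 of the 9 myeloid markers, stood at 9.45, 10 and 9.16 CPM with tagBFP, 10.9, 11 and 10.8 with ETV6_R399C and 16.8, 15.7 and 17.5 with ETV6_WT. Its order among groups differs from that of the myeloid sum, which was highest with R399C.

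SUSD3, a sushi-domain membrane protein, averaged 11.7 ± 0.448 CPM with tagBFP, 14.7 ± 0.392 with ETV6_R399C and 22.3 ± 0.253 with ETV6_WT. EMP1, a tetraspan membrane protein, averaged 1.38 ± 0.0488, 1.66 ± 0.223 and 3.1 ± 0.433 CPM in the same order. LRRC70, a leucine-rich repeat protein, stood at 0.9999, 1.47 and 2.06 CPM with tagBFP, 2.58, 2.91 and 1.44 with ETV6_R399C and 4.12, 3.78 and 4.59 with ETV6_WT, where R399C overlapped tagBFP. It lies within IPO11 on the same strand, so its reads are uncertain. GPR78, an orphan G protein-coupled receptor that overlaps CPZ on the same strand, stood at 0.662, 0.624 and 0.697 CPM with tagBFP, 0.657, 0.98 and 0.937 with ETV6_R399C and 2.24, 2.97 and 1.95 with ETV6_WT. It is uncertain for the same reason.

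All 6 transporters and channels had ETV6_WT libraries above the others. SLC6A19 (chromosome 5, 1201595 to 1225117, forward strand), a transporter of neutral amino acids, had the largest log2 ratio over tagBFP of the 59 genes, 3.61. It stood at 0.444, 0.18 and 0.25 CPM with tagBFP, 4.33, 3.68 and 3.94 with ETV6_R399C and 8.39, 9.21 and 9.89 with ETV6_WT, so R399C was far above tagBFP and still well below the wild type. MLC1, a membrane protein best known from astrocytes, stood at 6.73, 6.47 and 5.53 CPM with tagBFP, 9.1, 8.43 and 8.77 with ETV6_R399C and 16.7, 18.9 and 18 with ETV6_WT. SLC45A3, a sugar-transporter-like membrane protein, stood at 3.9, 3.2 and 2.998 CPM with tagBFP, 3.74, 3.92 and 3.73 with ETV6_R399C and 7.7, 7.72 and 7.86 with ETV6_WT, with R399C overlapping tagBFP. ATP10A, a phospholipid flippase, stood at 6.56, 6.61 and 5.25 CPM with tagBFP, 7.96, 7.06 and 7.45 with ETV6_R399C and 13.4, 12.4 and 11.8 with ETV6_WT. ABCG2, an efflux pump for drugs, stood at 2.38, 2.19 and 2.5 CPM with tagBFP, 3.74, 3.78 and 4.16 with ETV6_R399C and 7.003, 5.81 and 6.32 with ETV6_WT. PANX2, a pannexin channel protein, stood at 3.11, 3.48 and 3.21 CPM with tagBFP, 4.1, 4.9 and 4.81 with ETV6_R399C and 7.003, 7.07 and 8.39 with ETV6_WT. By CPM, in these last 3 genes R399C lay between the control and the wild type without overlap. By TPM, however, ABCG2 averaged 1.10 ± 0.973 with tagBFP, 1.72 ± 0.668 with ETV6_R399C and 1.94 ± 0.439 with ETV6_WT.

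Among 9 signalling and vesicle-traffic genes, GPSM1 (chromosome 9, 136327476 to 136359605, forward strand), a modulator of G-protein signalling, had the highest CPM of all 59, at 198, 191 and 179 CPM with tagBFP, 226, 227 and 218 with ETV6_R399C and 357, 356 and 363 with ETV6_WT. It overlaps DNLZ on the other strand. SOCS2, a feedback inhibitor of JAK-STAT cytokine signalling, stood at 21.9, 23.2 and 22.5 CPM with tagBFP, 22.4, 22.7 and 21.4 with ETV6_R399C and 44.5, 45.3 and 44.7 with ETV6_WT. Its R399C libraries overlapped those of tagBFP, so the whole difference lay between the wild type and the rest. EHD4, a protein of endocytic membranes, had the same pattern at 9.83, 8.9 and 10 CPM with tagBFP, 9.06, 8.46 and 10.5 with ETV6_R399C and 15.9, 16.4 and 17.3 with ETV6_WT. TIFAB, a regulator of TRAF6 signalling, had R399C between the others, at 4.72, 4.53 and 4.58 CPM with tagBFP, 9.76, 9.62 and 8.67 with ETV6_R399C and 18.3, 17.6 and 17.4 with ETV6_WT. STX1A, a SNARE protein of vesicle fusion, stood at 0.824, 1.01 and 0.583 CPM with tagBFP, 1.06, 1.72 and 1.21 with ETV6_R399C and 5.06, 4.62 and 4.46 with ETV6_WT, and it overlaps BUD23 on the other strand. SH3BP5, a binding partner of the B-cell kinase BTK, stood at 2.09, 3.5 and 1.8 CPM with tagBFP, 3.07, 2.6 and 3.16 with ETV6_R399C and 9.15, 7.09 and 7.09 with ETV6_WT. In both, all ETV6_WT libraries were above the rest. PDE4B, a phosphodiesterase that degrades cyclic AMP, averaged 0.853 ± 0.207 CPM with tagBFP, 2.29 ± 0.284 with ETV6_R399C and 5.65 ± 0.268 with ETV6_WT.

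TBX21 (chromosome 17, 47733244 to 47746119, forward strand) encodes T-bet, a transcription factor best known from T helper cells. It stood at 4.34, 3.52 and 3.54 CPM with tagBFP, 3.39, 3.87 and 3.16 with ETV6_R399C and 10.1, 11.5 and 12.9 with ETV6_WT. R399C overlapped tagBFP and the log2 ratio of wild type over R399C was 1.59. The summed T-cell markers were 0.620 to 1.25 CPM with ETV6_WT and 0.746 to 1.23 with tagBFP, and CD3D, CD2 and CD8B were at 0 in every library. OLIG1, a basic helix-loop-helix factor best known from oligodendrocytes, stood at 2.57, 2.59 and 2.92 CPM with tagBFP, 2.67, 2.21 and 2.88 with ETV6_R399C and 6.22, 5.21 and 5.39 with ETV6_WT, with R399C again overlapping tagBFP. NUP210, a nuclear pore glycoprotein, averaged 0.67 ± 0.111 CPM with tagBFP, 1.42 ± 0.382 with ETV6_R399C and 3.6 ± 0.386 with ETV6_WT. SAMD11, which overlaps NOC2L on the other strand, averaged 0.721 ± 0.0966, 1.71 ± 0.384 and 3.45 ± 0.648 CPM in the same order.

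Cytoskeletal and scaffold genes numbered 7. SHANK1, a scaffold protein best known from synapses, stood at 32.9, 34.3 and 31 CPM with tagBFP, 40, 40.2 and 39.9 with ETV6_R399C and 67.5, 70.4 and 74.7 with ETV6_WT, with 3 separate groups. AHNAK, a very large scaffold protein at the membrane, stood at 3.3, 3.48 and 1.96 CPM with tagBFP, 10.9, 10.2 and 8.54 with ETV6_R399C and 15, 15.1 and 15.8 with ETV6_WT, where R399C was nearer the wild type. CORO2B, an actin-binding coronin, averaged 9.07 ± 0.718 CPM with tagBFP, 10.1 ± 0.368 with ETV6_R399C and 18.9 ± 0.682 with ETV6_WT. ACTL8, an actin-like protein, averaged 1.6 ± 0.238, 2.95 ± 0.45 and 5.59 ± 0.566 CPM, and COBL, an actin nucleator, 1.33 ± 0.0351, 1.71 ± 0.475 and 3.06 ± 0.642 CPM. LUZP1 was uneven within its groups, at 16.4, 11.1 and 10.2 CPM with tagBFP, 14.1, 9.61 and 15.5 with ETV6_R399C and 30.3, 17 and 17.7 with ETV6_WT. By TPM, LUZP1 averaged 5.89 ± 0.682, 5.90 ± 1.26 and 7.27 ± 0.698 in the same order.

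Both interferon-induced genes had R399C between the other groups. GBP4, a guanylate-binding protein, stood at 36.8, 36.7 and 37.7 CPM with tagBFP, 45.3, 45 and 46.5 with ETV6_R399C and 69.5, 70.2 and 65.7 with ETV6_WT. EPSTI1 stood at 0.507, 0.467 and 0.416 CPM with tagBFP, 1.42, 0.883 and 0.91 with ETV6_R399C and 2.13, 1.91 and 2.47 with ETV6_WT, close to the level the rule required. Among 4 enzymes and chaperones, FUT7, the fucosyltransferase that completes selectin ligands, stood at 0.159, 0.287 and 0.125 CPM with tagBFP, 1.65, 1.72 and 2.47 with ETV6_R399C and 6.08, 5.62 and 5.48 with ETV6_WT. NCEH1, a hydrolase of cholesterol esters, stood at 0.292, 0.425 and 0.138 CPM with tagBFP, 0.728, 0 and 0.687 with ETV6_R399C and 2.31, 3.19 and 2.89 with ETV6_WT. SERHL2, a serine hydrolase-like gene that overlaps RRP7BP on the other strand, stood at 4.21, 5.31 and 5.43 CPM with tagBFP, 6.03, 6.05 and 6.14 with ETV6_R399C and 16.9, 17.1 and 16 with ETV6_WT. By CPM, ETV6_WT was above all other libraries in these 3 genes. In FUT7 and SERHL2 the R399C libraries were also above those of tagBFP. By TPM, however, NCEH1 averaged 0.611 with tagBFP, 0.837 with ETV6_R399C and 0.836 with ETV6_WT, so it was no higher with wild type than with R399C. Its transcript NCEH1-205, with 52.7% of the ETV6_WT reads, held 21, 83 and 0 reads there and 0 in every tagBFP and ETV6_R399C library.

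The remaining 5 genes had no assigned role. CUEDC1 stood at 32.2, 31 and 31.2 CPM with tagBFP, 43.8, 46 and 43.6 with ETV6_R399C and 79, 79.7 and 73.8 with ETV6_WT. CCDC187 stood at 14.1, 14.9 and 14.2 CPM with tagBFP, 23.8, 25.2 and 22.4 with ETV6_R399C and 33.7, 36.2 and 39.7 with ETV6_WT. Both separated the 3 groups. BAALC, known as a marker of immature blood cells and leukaemias, averaged 2.18 ± 0.295 CPM with tagBFP, 2.96 ± 0.277 with ETV6_R399C and 7.43 ± 0.594 with ETV6_WT. AL355987.1, a gene model that spans LCN10 and LCN6 on the same strand, and whose count is therefore uncertain, averaged 2.37 ± 0.813, 2.73 ± 0.662 and 4.38 ± 0.397 CPM.

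**Figure D2:**
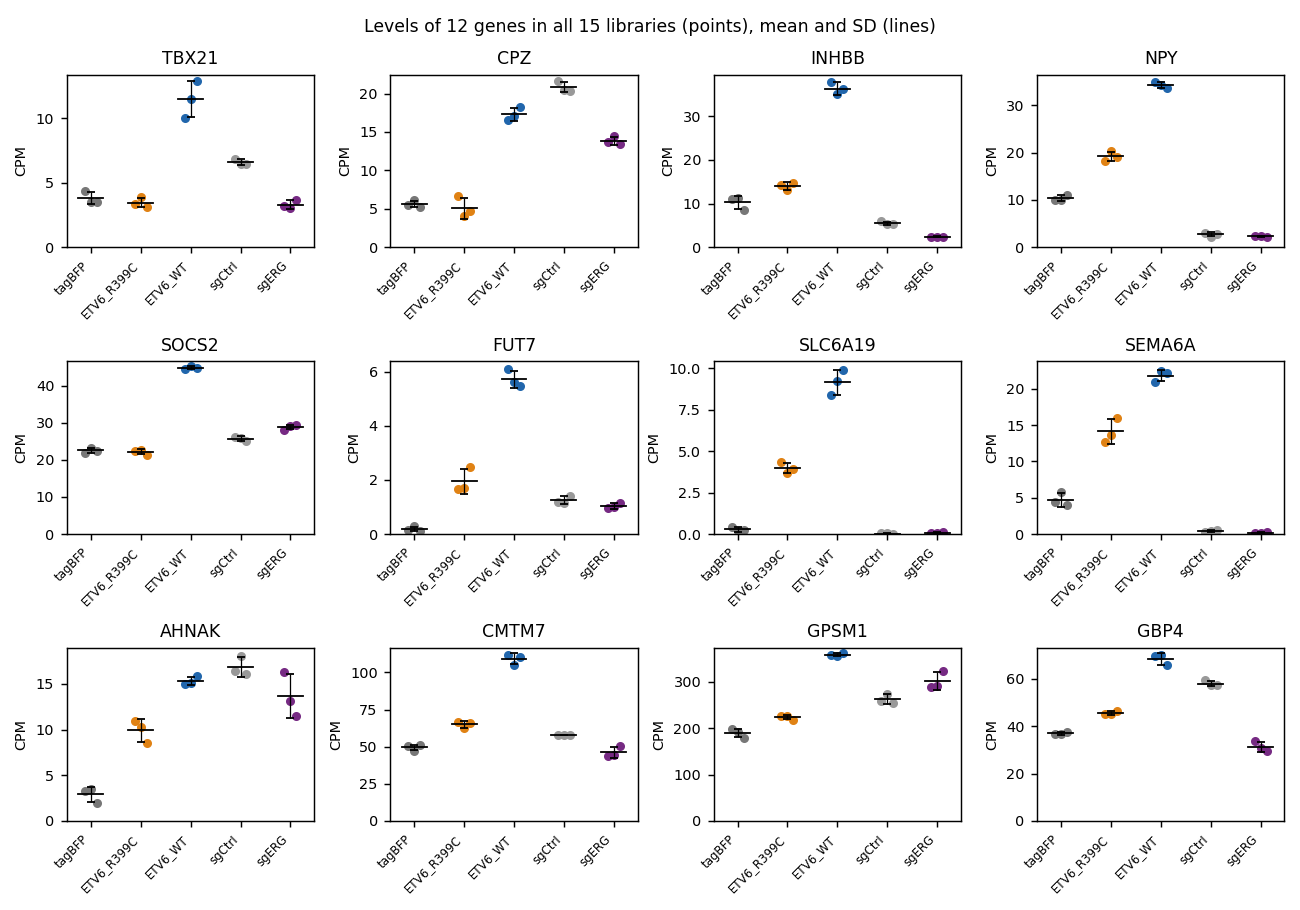
CPM (y axis, linear, from 0) of 12 of the genes in all 15 libraries (points) by group (x axis), with the mean (line) and SD (bar) of 3 libraries. SOCS2, TBX21 and CPZ show ETV6_R399C level with tagBFP, whereas SEMA6A and AHNAK show it nearer ETV6_WT, and SEMA6A and NPY are low in both groups at the right.

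In 8 of the 59 genes, ETV6_WT overlapped the other groups: MAPK8IP2, KIF24, DNAJB5, AL358075.4, ADGRE2, PIAS3, ITGA10 and FNDC5. They include 3 of the 7 largest ratios of wild type over R399C. All 8 had a transcript that Salmon, the program behind the deposited estimates, gave 0 reads in 1 library and at least 50 in another of the same group. Such a transcript was found in 12 of the 59 genes within the ETV6 experiment, the other 4 being NCEH1, CPZ, LUZP1 and SEMA6A. KIF24, a kinesin of the centriole, was listed at 0 in all tagBFP and ETV6_R399C libraries and at 0, 0 and 8.15 CPM with ETV6_WT. Its transcript KIF24-202 held 0, 0 and 185 reads with ETV6_WT, 248, 199 and 0 with sgCtrl and 268, 308 and 0 with sgERG. A single library thus placed KIF24 among the 59.

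DNAJB5, a co-chaperone of the DNAJ family, stood at 0.536, 0.77 and 0.0955 CPM with tagBFP, 0.462, 0.794 and 0.62 with ETV6_R399C and 6.52, 0.0526 and 0.961 with ETV6_WT, and DNAJB5-201 held 109, 0 and 0 reads with ETV6_WT. PIAS3, an inhibitor of STAT signalling, stood at 1.07, 0.978 and 0.899 CPM with tagBFP, 0.805, 0.811 and 4.61 with ETV6_R399C and 5.53, 0.839 and 6.05 with ETV6_WT. ITGA10, a collagen-binding integrin subunit, had 1 R399C library above all others, at 0.473, 0.458 and 0.301 CPM with tagBFP, 0.785, 0.522 and 4.31 with ETV6_R399C and 3.71, 3.4 and 3.75 with ETV6_WT. In both genes R399C replicate 3 stood far above the other R399C libraries, and in PIAS3 replicate 2 of ETV6_WT was as low as the control. MAPK8IP2, a scaffold protein of the JNK pathway that overlaps CHKB on the other strand, stood at 3.81, 1.34 and 0.334 CPM with tagBFP, 0.3001, 0 and 0.0929 with ETV6_R399C and 4.52, 9.07 and 3.69 with ETV6_WT. FNDC5, the precursor of irisin, stood at 1.36, 0.873 and 0.626 CPM with tagBFP, 5.08, 5.3 and 1.32 with ETV6_R399C and 2.9, 7.75 and 7.6 with ETV6_WT. ADGRE2, an adhesion G protein-coupled receptor that overlaps ZNF333 on the other strand, stood at 11.9, 7.53 and 6.23 CPM with tagBFP, 5.96, 4.94 and 11.2 with ETV6_R399C and 21, 9.77 and 15.3 with ETV6_WT. AL358075.4, a gene model that overlaps PIK3R3 on the same strand, stood at 2.01, 0 and 0 CPM with tagBFP, 1.28, 1.47 and 0 with ETV6_R399C and 4.67, 0.762 and 1.78 with ETV6_WT. In each of these 4 genes at least 1 library with R399C or tagBFP reached the lowest ETV6_WT library.

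**Figure D3:**
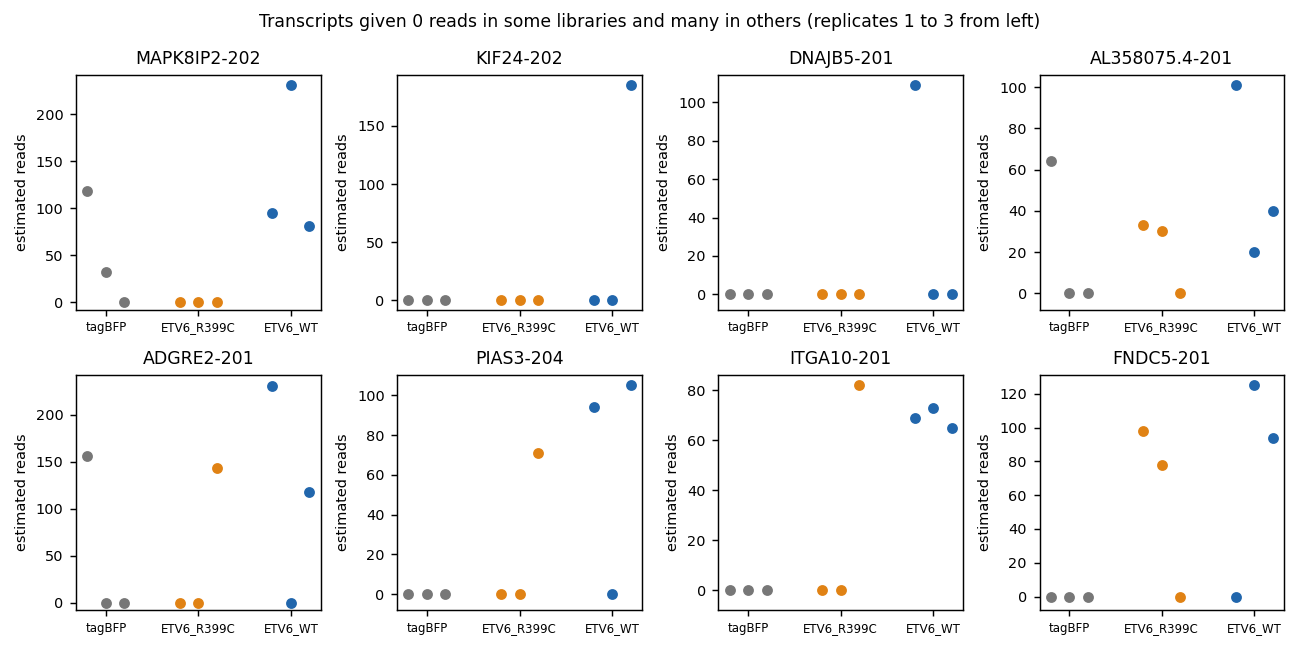
Estimated reads (y axis, linear) of 1 transcript of each of the 8 overlapping genes in each library of the ETV6 experiment, with replicates 1 to 3 from left to right within a group (x axis). KIF24-202 and DNAJB5-201 have reads in 1 ETV6_WT library each, 185 and 109, and 0 in the other 8.

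Some of the genes lay close together. Of the 59, 14 (23.7%) lay within 500 kb of another, in 5 groups, and of 10927 other protein-coding genes of at least 2 CPM, 474 (4.34%) had one of the 59 that near. On chromosome 4, HTRA3, GPR78 and CPZ lay within 350 kb. Between them, ACOX3 and TRMT44 had log2 ratios of wild type over R399C of -0.09 and 0.04, against 0.85, 1.09 and 1.67 for the 3 genes. On chromosome 22, MLC1, PANX2 and MAPK8IP2 spanned 555 kb with 18 other genes, whose ratios ran from -0.37 to 0.39. On chromosome 9, CCDC187, GPSM1, AL355987.1 and FUT7 spanned 783 kb with 24 other genes at -0.07 to 0.38. NOTCH1, among these, was at 0.29. The other groups were PIAS3 with ITGA10 on chromosome 1 (61.7 kb) and BAALC with CTHRC1 on chromosome 8 (242 kb). GPR78 and CPZ can share reads, so that pair is not independent. PIAS3 and ITGA10 were high in the same R399C library, but stood at 0.839 and 3.4 CPM in ETV6_WT replicate 2. Whether they are independent was not tested. PIAS3, ITGA10 and MAPK8IP2 are among the 8 genes whose ETV6_WT libraries overlapped the other groups. AL355987.1, at 4.38 CPM with ETV6_WT, spans LCN10 and LCN6, at 145 CPM each, so its count is uncertain. The nearness was not tested.

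**Figure D4:**
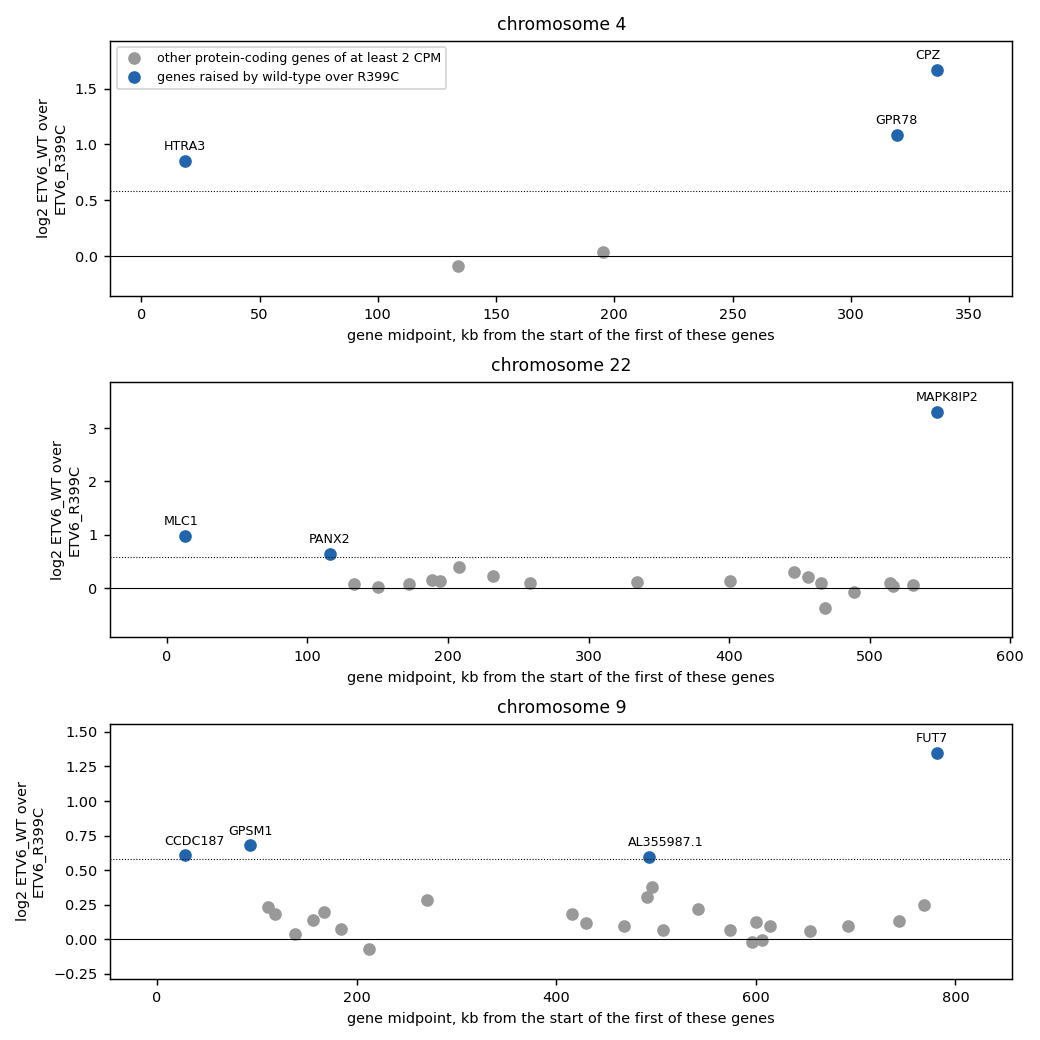
Log2 ratio of ETV6_WT over ETV6_R399C (y axis, 0.5 CPM added) of protein-coding genes of at least 2 CPM against the gene's midpoint in kb from the first of the 59 genes there (x axis), on chromosomes 4, 22 and 9. Blue points are the genes raised by wild type and lie above the dotted line at 0.58 by choice; grey neighbours between them lie at -0.37 to 0.39.

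ERG repression was the comparison that had no part in choosing the genes. Of the 59, 55 passed the filter on low counts, and DLK1, NUP210, SLC6A19 and AL358075.4, with at most 13 reads in any sgCtrl or sgERG library, did not. By edgeR's quasi-likelihood test at an adjusted p of 0.05 over all genes, 13 of the 55 fell (23.6%, against 7.74% of all 13464 genes tested) and 7 rose (12.7%, against 6.89%), while 35 had no call. The median log2 fold change was -0.17, with 0.00 over all genes tested, and the median size of the change was 0.35, with 0.11 over all. The 59 had a median of 2.74 CPM with sgCtrl. The sizes were not compared with those of genes of like level, so nothing is read from the gap in size. Without the 8 genes whose ETV6_WT libraries overlapped, 48 were tested and the counts stayed at 13 and 7. Of the 55 tested genes, 17 had all sgERG libraries below all sgCtrl libraries, where the share over all genes tested was 14.7%. In 13 (23.6%) they all lay above, which was near the 20.3% over all genes tested. Reads assigned to the ETV6 gene, part of which is in the fusion, averaged 13.1 ± 1.27 CPM with sgCtrl and 6.60 ± 0.525 with sgERG. Myeloid markers summed to 112 to 114 and 137 to 154 CPM, stromal markers to 76.8 to 80.4 and 91.8 to 98.9, megakaryocyte markers to 55.5 to 58.3 and 46.6 to 50.8, and plasma-cell markers to 38.0 to 40.9 and 36.7 to 38.0. The part of these in the changes was not tested.

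By role, the 13 genes that fell were 4 membrane receptors and adhesion proteins, 3 transporters, 2 secreted proteins, both interferon-induced genes, 1 transcription factor and 1 signalling gene. LRRC70 fell most, from 1.35, 0.962 and 1.18 CPM with sgCtrl to 0.287, 0.331 and 0.404 with sgERG (log2 -1.77 ± 0.29 SE, adjusted p = 0.0021), with the doubt that it lies within IPO11. ATP10A stood at 2.68, 2.56 and 2.47 CPM with sgCtrl and 1.08, 0.632 and 1.04 with sgERG (log2 -1.50 ± 0.23 SE, adjusted p = 0.0014). ABCG2 stood at 1.93, 2.61 and 2.66 CPM with sgCtrl and 1.14, 1.05 and 0.875 with sgERG (log2 -1.24 ± 0.21 SE, adjusted p = 0.0033). The flippase and the drug pump thus fell 2.83-fold and 2.36-fold, without overlap between groups. EPSTI1 stood at 1.59, 1.7 and 1.8 CPM with sgCtrl and 0.69, 0.873 and 0.606 with sgERG (log2 -1.24 ± 0.23 SE, adjusted p = 0.0044). GBP4, the other interferon-induced gene, stood at 59.4, 57.2 and 57.6 CPM with sgCtrl and 33.7, 31 and 29.6 with sgERG (log2 -0.90 ± 0.06 SE, adjusted p = 2.3e-06). INHBB stood at 5.9, 5.25 and 5.27 CPM with sgCtrl and 2.46, 2.32 and 2.42 with sgERG (log2 -1.21 ± 0.12 SE, adjusted p = 0.0001). TBX21 fell 2.03-fold, from 6.88, 6.49 and 6.46 to 3.21, 3.01 and 3.67 CPM (log2 -1.02 ± 0.12 SE, adjusted p = 0.00021). All 3 sgERG libraries of each of these genes were below all 3 of sgCtrl. GPR78 stood at 2.21, 1.8 and 1.76 CPM with sgCtrl and 0.884, 1.14 and 1.37 with sgERG (log2 -0.78 ± 0.23 SE, adjusted p = 0.045). Its call was lost in 8 of 11 alternative analyses.

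The other 5 fell less. SLC45A3 changed by log2 -0.71 and CPZ by -0.61, TIFAB by -0.50, and CMTM7 and SUSD3 by -0.35 each, with edgeR adjusted p values of 0.00012 to 0.0086. CPZ stood at 21.6, 20.5 and 20.4 CPM with sgCtrl and 13.7, 14.4 and 13.4 with sgERG, and TIFAB at 35.5, 32 and 35.1 CPM with sgCtrl and 25.4, 24.9 and 23.1 with sgERG. SUSD3 lost its call without sgCtrl replicate 3, with an adjusted p of 0.051. ATP10A and EPSTI1 lost theirs when the fit allowed for average transcript length, with adjusted p values of 0.12 and 0.31.

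The 7 genes that rose were 3 secreted proteins, 1 channel, 1 endocytic protein, 1 transcription factor and CUEDC1. PANX2 stood at 38.3, 35.5 and 38 CPM with sgCtrl and 62.9, 62.5 and 72.8 with sgERG (log2 0.81 ± 0.07 SE, adjusted p = 2.5e-05). AMBP stood at 15.3, 14.8 and 16.5 CPM with sgCtrl and 27.4, 24.1 and 28 with sgERG (log2 0.75 ± 0.08 SE, adjusted p = 0.0001). EHD4 stood at 1.14, 1.45 and 1.35 CPM with sgCtrl and 3.12, 2.56 and 2.05 with sgERG (log2 0.96 ± 0.21 SE, adjusted p = 0.013). These were rises of 1.75-fold, 1.68-fold and 1.94-fold, and no sgERG library overlapped sgCtrl. OLIG1 stood at 6.04, 4.7 and 4.29 CPM with sgCtrl and 8.46, 9.22 and 6.98 with sgERG (log2 0.70 ± 0.15 SE, adjusted p = 0.0098), CTGF at 6.11, 5.36 and 6.11 CPM with sgCtrl and 7.77, 8.19 and 8.52 with sgERG (log2 0.46 ± 0.10 SE, adjusted p = 0.0099). CUEDC1 stood at 22, 23.4 and 22 CPM with sgCtrl and 27.7, 27.4 and 31.1 with sgERG (log2 0.34 ± 0.07 SE, adjusted p = 0.0086), and LGALS1 at 21.2, 24.9 and 24.5 CPM with sgCtrl and 28.6, 30.1 and 30.7 with sgERG (log2 0.32 ± 0.07 SE, adjusted p = 0.016). Without sgCtrl replicate 1, only 4 of the 7 were called, as CUEDC1, EHD4 and LGALS1 missed the threshold. EHD4 also lost its call without sgERG replicate 1 and LGALS1 without sgERG replicate 2. OLIG1 and CUEDC1 lost theirs with the allowance for transcript length, and OLIG1-201 held 63, 0 and 0 reads with sgCtrl.

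The 9 genes with no higher mean with ETV6_R399C than with tagBFP went both ways on ERG repression. CPZ and TBX21 fell, CTGF, OLIG1 and EHD4 rose, and ADGRE2, MAPK8IP2, KIF24 and SOCS2 had no call. SOCS2 stood at 26.2, 25.8 and 25.1 CPM with sgCtrl and 28.1, 29.1 and 29.3 with sgERG (log2 0.15 ± 0.06 SE, edgeR adjusted p = 0.11). SLC45A3, LRRC70 and GPR78, whose ETV6_R399C libraries overlapped those of tagBFP at a higher mean, also fell. Among genes without a call were NPY at log2 -0.26 ± 0.17 SE, AHNAK at -0.32 ± 0.11 and SEMA6A at -1.22 ± 0.52, with edgeR adjusted p values of 0.34, 0.086 and 0.15. GPSM1 missed the threshold narrowly (log2 0.18 ± 0.05 SE, adjusted p = 0.052) and passed it in 5 of 11 alternatives. SEMA6A averaged 0.388 ± 0.131 CPM with sgCtrl, a level at which libraries overlapped.

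**Figure D5:**
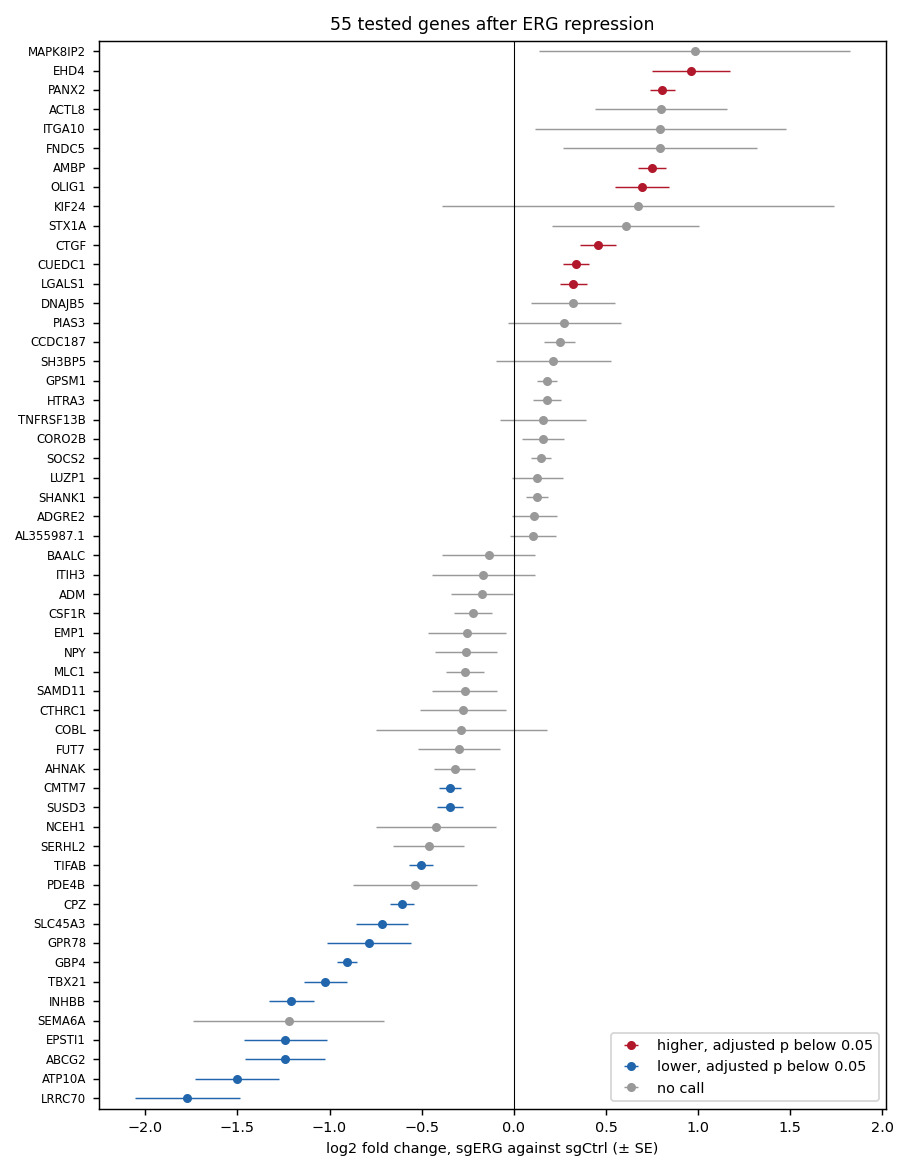
Log2 fold change of sgERG against sgCtrl (x axis, with bars of ± 1 SE from edgeR) for the 55 tested genes (y axis, ordered by change), with 3 libraries a group. The 13 that fell (blue) reach -1.77 in LRRC70, the 7 that rose (red) reach 0.96 in EHD4, and the 35 grey genes had no call.

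Several of the genes stood at other levels in the control cells of the second experiment. Against tagBFP, the sgCtrl mean was at least 2-fold higher in 17 of the 59 genes (28.8%, with 6.81% over all 14242 genes) and at least 2-fold lower in 9 (15.3%, with 11.8% over all). A low tagBFP level helped a gene to meet the rule, so nothing is read from the gaps between these shares. PANX2 stood at 3.27 ± 0.196 CPM with tagBFP and 37.3 ± 1.56 with sgCtrl, TIFAB at 4.61 ± 0.1001 and 34.2 ± 1.9, and AHNAK at 2.91 ± 0.833 and 16.8 ± 1.09. In the other direction, SEMA6A stood at 4.74 ± 0.956 and 0.388 ± 0.131 CPM, NPY at 10.4 ± 0.604 and 2.74 ± 0.437, and EHD4 at 9.59 ± 0.61 and 1.31 ± 0.162. For PANX2, TIFAB and AHNAK the sgCtrl mean was above that with ETV6_WT. These groups differ in vector, sorting and time, so no test was made, and the differences cannot be told apart from those of the experiments.

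Other genes of 5 pathways were counted with the 59 left out, by edgeR's quasi-likelihood test between ETV6_WT and ETV6_R399C. Over all 14242 genes tested, 12.1% were higher with the wild type and 9.29% lower. Of 38 actin and adhesion genes, 5 were higher and 10 lower, with LCP1 and CORO1A, both actin-binding proteins, lower at log2 -0.55 and -0.48, and CD99, an adhesion glycoprotein, higher at 0.57. Of 24 interferon-response genes, 10 were higher, IFI6 among them at log2 0.51, and 2, MX2 and GBP2, lower at -0.44 and -1.51, while GBP4 and EPSTI1 among the 59 were higher by choice. Of 22 p53 targets, 1 was higher and 7 lower, with SESN2 lower at log2 -1.11. Of 30 B-lineage genes, 9 were higher and 8 lower, and of 20 ETS genes 5 and 6, with ETV4 at -2.82 and ETV5 at -1.68. The median log2 fold changes of these lists lay between -0.11 and 0.13, with 0.02 over all genes tested. An allowance for average transcript length lowered the calls from 87 to 44, counted over these lists and 1 other.

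With sgERG, 6.89% of all genes tested were higher and 7.74% lower. The same lists had 11 genes higher and 10 lower of 38 for actin and adhesion, and 9 and 7 of 30 for the B lineage. They had 3 and 3 of 25 for interferon response, 3 and 3 of 23 for p53 targets, and 5 and 4 of 20 for the ETS family. ERG, which the guide targets, is 1 of those 4. ETS2, another ETS factor, rose by 1.09 on the log2 scale, and SPIB, which is in the ETS and the B-lineage list, by 1.68. In the interferon list, MX2 rose by log2 0.25 and MX1 changed by -0.26, beside -0.90 for GBP4 of the 59.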

How the data were processed

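Total RNA was made into libraries with a kit that keeps the strand, per the labels. The authors deposited 1 table per library, with an estimated count of reads and a TPM per transcript, per the file headers. The submitters' processing notes name Salmon 0.11.3 and hg38. Neither the strand setting nor any read filter is given in the sources used here. Of 167268 transcripts, 90.3% matched GENCODE 29, and the others, which took 6.67% to 7.56% of a library's reads, were not used. The deposited estimated counts were summed per gene, and CPM is relative to the sum over named genes. Deposited TPM was summed likewise.

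For tests, gene sums were rounded and fitted with edgeR 4.0.16 in R 4.3.3 (TMM scaling, default filter on low counts, quasi-likelihood test, Benjamini-Hochberg adjustment over all genes tested). sgERG and sgCtrl entered 1 fit of 6 libraries, and the ETV6 experiment 1 fit of 9. The SE is the size of the log2 fold change divided by the square root of F. The test was tried on simulated counts. Alternatives were DESeq2 1.42.0, other scaling, no filter, a replicate block, an offset for average transcript length and leaving out each library. No replicate pair agreed within sampling noise (chi-square over its degrees of freedom, 2.79 to 14.0). Exon-free upstream windows were checked against GENCODE 29.

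The genes, lists and tests were chosen with earlier results of these data known, and roles were assigned after the genes were known. Values per library are given for the 12 largest ratios over R399C, the 8 highest levels, the called genes with the largest changes with sgERG and members of a pathway list. Others given so were chosen after their values were seen. Of each list, up to 3 genes with the smallest p are named. Of the 6 lists, 1 is not reported here.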

Additional observations from a re-analysis of the deposited data

How the results depend on the processing

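The rule gave 51 to 68 genes with other added values (1 and 0.1 CPM) and 55 to 68 without single libraries, of which 50 to 59 were among the 59. With TPM in place of CPM it gave 57 genes, of which 32 were among the 59. With sgERG, genes of the 59 that rose numbered 4 to 8 and those that fell 11 to 13 when single libraries were left out. Over all genes, 927 rose and 1042 fell, and 504 to 1054 and 656 to 1248 without single libraries, the lowest without sgCtrl replicate 1 (504 and 656) and sgCtrl replicate 3 (506 and 656). Allowing for average transcript length gave 586 rises over all genes, and 5 rises and 10 falls among the 59. With that allowance, 44 of the listed pathway genes differed between ETV6_WT and ETV6_R399C, against 87 (66 to 88 without single libraries), and for sgERG the lists had 75 calls (52 to 78). Of the 20 called genes, 12 kept call and direction in all 11 alternatives, and no direction reversed.

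Replicate numbers were not used as pairs in the main fits. For each gene, a library's log CPM was taken as a deviation from its group mean. These deviations correlated weakly between libraries of different groups. Between sgERG and sgCtrl, deviations of same-numbered libraries correlated at 0.0245 to 0.0975 and those of differently numbered ones at -0.0886 to 0.0501. Between ETV6_WT and ETV6_R399C, the ranges were -0.0719 to 7.12e-05 and -0.0273 to 0.0756. With the replicate block, 8 of the 59 rose and 12 fell, 696 and 840 of all genes did so, and the pathway lists had 85 calls between the ETV6 forms and 62 with sgERG.

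Low counts kept 4 of the 59 out of the test with sgERG.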
